A study of Rattus norvegicus with 4 samples.

Results

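Smooth muscle nuclei were sought among the nuclei of rat adipose tissue by their marker transcripts. A barcode, the tag shared by all reads of a droplet, was taken when it had at least 500 genes, at least 3 unique molecular identifiers (UMIs, each standing for 1 captured RNA molecule) and at least 2 genes among Myh11, Acta2, Tagln, Cnn1, Myocd and Lmod1, and at most 1 UMI over Cyyr1, Ptprb, Flt1, Pdgfra, Ptprc and Mrc1, markers of endothelial cells, fibroblasts and leukocytes. This rule took 2393 of 116661 barcodes with at least 500 genes. The members were chosen by these UMI counts, so the levels of the 6 markers, and of any gene against the barcodes not taken, are descriptions and carry no test.

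The libraries came from snap-frozen tissue of untreated male Dahl salt-sensitive rats (strain SS/HsdMcwiCrl, 16 weeks old), an inbred strain that becomes hypertensive on high salt. All animals were labelled normal and shared strain, sex, age, feed and housing. Perivascular adipose tissue of the thoracic aorta (taPVAT) gave 2 libraries and subscapular brown adipose tissue (BAT) gave 2, from 2 rats for each tissue. The labels do not state whether a rat gave both tissues, and nothing limits the vessels in a sample to an artery or a vein of a given size.

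Vascular smooth muscle cells contract through smooth muscle myosin (Myh11) sliding on actin (Acta2), with calponin (Cnn1), transgelin (Tagln) and leiomodin (Lmod1) on the thin filament. Serum response factor and its coactivator myocardin (Myocd) drive these genes through the CArG box. In adipose tissue such cells wrap the arterioles and veins that feed and drain the fat, and periaortic fat also borders the aorta, whose wall layers carry elastin. Pericytes, which wrap capillaries, share part of this programme.

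Matches to the CArG box are shown in the promoters of Acta2, a marker of the rule, and of Dmd (dystrophin). Dmd is a gene outside the rule whose level was high where marker UMIs were many. Sequences are from RefSeq (build GRCr8, whereas the deposited counts were made on Rnor_6.0), run from 250 bases before the start to 50 after it, and have in capitals each match to the CArG box with at most 1 of its 6 inner A or T bases replaced. The Acta2 promoter lies on chromosome 1 (chr1:241172454-241172753, minus strand) and its matches begin 134 and 84 bases before the start. Each of these matches has 1 inner base replaced. Dmd has 3 promoters in the table, and the one shown, the only one with a match, lies on chromosome X (chrX:51205836-51206135, plus strand), with a match without replacement that begins 98 bases before the start.
Acta2: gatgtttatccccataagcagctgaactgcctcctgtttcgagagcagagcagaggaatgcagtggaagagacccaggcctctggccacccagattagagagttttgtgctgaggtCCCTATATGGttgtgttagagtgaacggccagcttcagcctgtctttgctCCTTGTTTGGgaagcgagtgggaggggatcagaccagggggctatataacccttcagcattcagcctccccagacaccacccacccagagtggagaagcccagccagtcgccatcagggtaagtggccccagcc
Dmd: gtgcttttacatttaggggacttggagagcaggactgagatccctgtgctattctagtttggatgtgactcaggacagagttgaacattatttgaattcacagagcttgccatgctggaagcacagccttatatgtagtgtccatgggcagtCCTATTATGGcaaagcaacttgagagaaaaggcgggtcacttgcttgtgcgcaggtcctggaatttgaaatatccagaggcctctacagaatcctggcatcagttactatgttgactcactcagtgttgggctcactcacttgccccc
The motif reads the same on both strands. A match with no replacement was in 1.64% of 33469 promoters of the same length, and a match with at most 1 replacement in 9.42%. Of the 32 promoters found for 29 genes of the contractile list, 3 held a match with no replacement and 4 a match with at most 1. Of the 6 markers of the rule, only Acta2 and Cnn1 had a promoter there. Neither held a match with no replacement, and Cnn1 held none with 1 replacement either. A match describes letters in this window, not binding.

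Library totals ran from 63654436 to 158140959 UMIs. Between 93 and 381 kept barcodes were shared by any pair of libraries, and no member barcode was shared. The members held 3148888 and 1210070 UMIs in the taPVAT libraries and 6605771 and 3586053 in the BAT libraries, in replicate order, and every pair of values below keeps that order. Levels are in CPM, the UMIs of a gene scaled to 1000000 UMIs summed over the named set of nuclei in a library.

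Most barcodes taken by the rule had few marker UMIs and the adipocyte marker share of the rest of the tissue, and somewhat higher levels of some smooth muscle genes. With 3 to 5 marker UMIs there were 376 and 114 in taPVAT and 577 and 427 in BAT, or 59.5 to 69.9% of each library's members. Lmod1 alone gave 53.2 to 63.1% of their marker UMIs, although Lmod1 was also present at 103 to 204 CPM in the barcodes not taken. Their Acta2 was at 17.7 and 12 CPM in taPVAT and 10.6 and 19.8 CPM in BAT. The median share of their UMIs in 12 adipocyte markers was 1.39% and 1.4% in taPVAT and 1.43% and 1.49% in BAT, against 1.37% and 1.41% in taPVAT and 1.41% and 1.44% in BAT for the barcodes not taken. These members thus carried as large a share of adipocyte marker RNA as the rest of the tissue. Dmd (dystrophin), which the rule did not use, was at 65.7 and 41.6 CPM in taPVAT and 26.4 and 69 CPM in BAT, above the barcodes not taken in every library (28.9 and 21.6 CPM in taPVAT and 23.7 and 31.8 CPM in BAT). Tpm1, a tropomyosin gene also outside the rule, was at 96 and 58 CPM in taPVAT and 94.7 and 98.7 CPM in BAT, against 46.1 and 34.1 CPM in taPVAT and 52.7 and 41.5 CPM in BAT. Eln, outside the rule too, went the other way, at 16.3 and 2.19 CPM in taPVAT and 5.95 and 20.8 CPM in BAT. The barcodes not taken held it at 47.2 and 28.1 CPM in taPVAT and 36.1 and 48.8 CPM in BAT. The members with 3 to 5 marker UMIs were also deeper, with median UMIs per barcode of 5086 and 6532 in taPVAT and 5774 and 4171 in BAT, against 3051 and 4582 in taPVAT and 3848 and 2765 in BAT for the barcodes not taken.

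Members with 15 or more marker UMIs were of another kind. They numbered 65 and 17 in taPVAT and 119 and 96 in BAT, and their Acta2 was at 788 and 1008 CPM in taPVAT and 1035 and 1139 CPM in BAT. Myh11 stood at 4838 and 5039 CPM in taPVAT and 5036 and 4927 CPM in BAT, in libraries that overlapped between tissues. Dmd, which the rule did not use, was at 3879 and 3477 CPM in taPVAT and 3869 and 5025 CPM in BAT, against 26.4 to 69 CPM in members with 3 to 5 marker UMIs. Their median adipocyte marker share was 0.823% and 0.511% in taPVAT and 0.788% and 0.612% in BAT. Their median mitochondrial share was 8.01% and 13.5% in taPVAT and 9.23% and 11.6% in BAT, against 5.23% and 5.19% in taPVAT and 5.11% and 7.58% in BAT in members with 3 to 5 marker UMIs and 7.41% and 6.75% in taPVAT and 7.03% and 10.2% in BAT in the barcodes not taken. Their median depth was 3455 and 2737 in taPVAT and 3077 and 2579.5 in BAT UMIs, below that of the members with 3 to 5. The part of RNA quality and depth in these differences was not tested. Members just inside the threshold, with 3 UMIs, had Myh11 at 98.4 to 213 CPM, and barcodes just outside it, with 2 UMIs over 2 genes, had 97.2 to 154 CPM. Acta2, Myh11 and Lmod1 are counted by the rule and rise with the number of marker UMIs by construction. Of the measures the rule did not use, Dmd was high and the adipocyte marker share low in the members with 15 or more marker UMIs, so the label held for them. In those with 3 to 5, the adipocyte marker share and Eln went against the label. Their Dmd and Tpm1 lay above the barcodes not taken but far below the members with 15 or more marker UMIs. Members with 6 to 14 marker UMIs numbered 126 and 32 in taPVAT and 273 and 171 in BAT. Their median adipocyte marker share, 1.29% and 1.33% in taPVAT and 1.41% and 1.4% in BAT, lay close to that of the barcodes not taken. Their Dmd was at 458 and 118 CPM in taPVAT and 119 and 416 CPM in BAT, between members with fewer and with more marker UMIs. Below, "members" are the 2393 barcodes of the rule, and "stricter-rule nuclei" are the 463 of them with at least 6 UMIs over at least 3 of the 6 markers (114 and 21 in taPVAT, 167 and 161 in BAT). The stricter-rule nuclei include some of the members with 6 to 14 marker UMIs. Their median adipocyte marker share was 0.928% and 0.673% in taPVAT and 0.810% and 0.783% in BAT. The stricter rule was listed as an alternative, and its use as a comparison of its own was chosen after the data were seen.

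**Figure D1:**
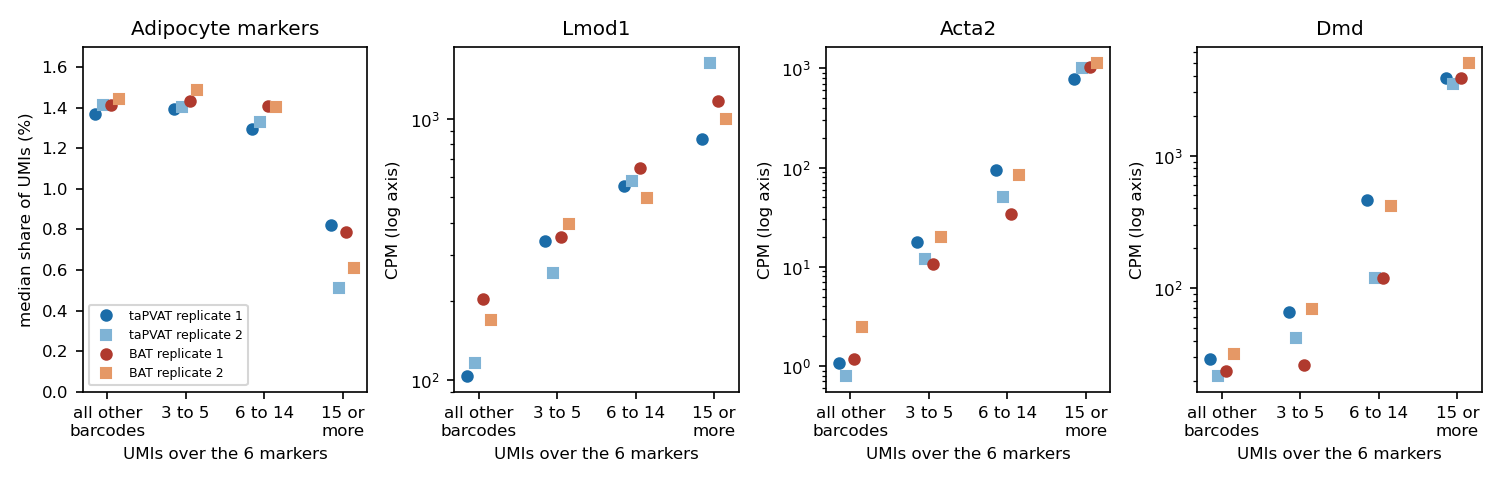
Each point is a library. The first panel gives the median share of a barcode's UMIs (%) in 12 adipocyte markers, and the others the level of Lmod1, Acta2 and Dmd (CPM, log axis), for barcodes not taken and for members by their number of marker UMIs. Adipocyte marker shares of members with 3 to 5 UMIs lie with those of the barcodes not taken, and Acta2 and Dmd are highest in all 4 libraries at 15 or more UMIs.

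Beside their own markers, the stricter-rule nuclei held adipocyte and pericyte markers. The rule itself had capped endothelial and leukocyte markers (Cyyr1, Ptprb, Flt1, Ptprc and Mrc1), so the low sums of the vascular endothelial and myeloid lists describe the choice. Summed over 6 vascular endothelial markers, the level was 20.6 to 44.6 CPM, against 109.5 to 226 CPM in the barcodes not taken. Mesothelial markers summed to 0 to 2.15 CPM and 7 of 7 were at 0 in taPVAT replicate 2 and BAT replicate 1. In the barcodes not taken they summed to 11.7 and 12.1 CPM in taPVAT and 0.601 and 0.619 CPM in BAT. A count of 0 allows up to 30.9 CPM in taPVAT replicate 2 and 4.19 CPM in BAT replicate 1, so neither library could show a lower level. Myeloid markers summed to 0 to 25.8 CPM. The 8 fibroblast markers summed to 1581 to 2212 CPM, nearly all of it Ebf2, which was higher still in the barcodes not taken (1982 to 2339 CPM for the list). The 5 Schwann cell markers summed to 62.4 and 30.9 CPM in taPVAT and 44.7 and 58.9 CPM in BAT, above their sum in the barcodes not taken in every library (31.8 and 21.3 CPM in taPVAT and 28 and 26.1 CPM in BAT). The sum in taPVAT replicate 2 is that of 3 UMIs, no more than a count of 0 allows there, so that library could not show a difference. The 5 lymphatic endothelial markers summed to 6.46 and 20.6 CPM in taPVAT and 1.4 and 17.5 CPM in BAT, above the barcodes not taken in BAT replicate 2 alone (27.2 and 24.2 CPM in taPVAT and 3.89 and 8.44 CPM in BAT). Markers of skeletal or cardiac muscle summed to 75.3 and 360.3 CPM in taPVAT and 67 and 189.5 CPM in BAT, highest in replicate 2 of each tissue, as in the barcodes not taken (54.6 and 168 CPM in taPVAT and 54.9 and 175 CPM in BAT). Pericyte markers summed to 949 and 1399.9 CPM in taPVAT and 735 and 612 CPM in BAT, higher in both taPVAT libraries. In pericyte-like barcodes, taken by pericyte markers, that sum was 2362 to 3861 CPM. Adipocyte markers summed to 11337 and 10469 CPM in taPVAT and 10882 and 11882 CPM in BAT, in libraries that overlapped between tissues, against 14123 to 14904 CPM in the barcodes not taken. The 6 smooth muscle markers summed to 5198 and 5311 CPM in taPVAT and 6667 and 5999.8 CPM in BAT, lower in both taPVAT libraries.

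The genes that marked the stricter-rule nuclei beside the rule's own markers included genes of contraction, calcium handling and the cytoskeleton. By a fixed rule they were ranked on the smallest of 4 within-library ratios to the barcodes not taken, among genes at 50 CPM or more in each library. Kcnma1, the pore of the large-conductance calcium-activated potassium channel, led at 534 and 504 CPM in taPVAT and 600.1 and 478 CPM in BAT, at least 372-fold its level in the barcodes not taken of the same library. Synpo2, an actin-bundling protein of the Z-disc and dense bodies, was at 824 and 607 CPM in taPVAT and 1165 and 1037 CPM in BAT, with a smallest ratio of 129. Dmd, which links actin to the membrane, was at 2888 and 2223 CPM in taPVAT and 3171 and 3509 CPM in BAT. The rule had used none of these genes. The others of the 20 were Cdh6, Grip2, Cap2, Map3k7cl, Casq2 (calsequestrin, the calcium store protein), P2rx1 (an ATP-gated channel), Cpa6, Fhl5, Col19a1, Cyp4f18, Ryr2, Akap6, Nexn, Dgkb, Ttll7, Asb2 and Speg, with smallest ratios from 43.3 to 277. Over all members the same ranking began with Synpo2, Dmd, Dgkb and Nexn, at smallest ratios of 11.8, 10.4, 9.94 and 8.46. Abcc9, a pericyte marker, was also among those 20.

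The barcodes taken by the rule, and the stricter-rule nuclei among them, made up a larger share in both BAT libraries than in either taPVAT library. Of kept barcodes, members were 1.32% and 1.32% in taPVAT and 2.8% and 2.59% in BAT (means 1.32% ± 0.00148 and 2.7% ± 0.151, SD, n = 2 each). The tissues did not overlap, and the exact two-sided permutation test gave p = 0.333, the smallest that 2 libraries against 2 allow. Stricter-rule nuclei were 0.265% and 0.170% in taPVAT and 0.483% and 0.601% in BAT, again without overlap. With every barcode thinned to 1000 UMIs, which left out 1451 and 102 shallower barcodes in taPVAT and 462 and 463 in BAT, the members' share was 0.301% and 0.213% in taPVAT and 0.510% and 0.703% in BAT, and with Lmod1 left out of the rule it was 0.365% and 0.300% in taPVAT and 0.561% and 0.761% in BAT. The order of the tissues was the same under each of these rules, while the difference of the means was -1.38 percentage points under the rule and -0.324 under the stricter rule. Lmod1 itself was higher in BAT among the barcodes not taken, at 103 and 116 CPM in taPVAT and 204 and 169.8 CPM in BAT. A share of barcodes depends on how many nuclei of each other type were recovered, and fewer nuclei of this kind cannot be told apart from more of the rest. Barcodes that met the marker counts but had too many UMIs over the excluded genes numbered 95 and 25 in taPVAT and 112 and 152 in BAT.

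**Figure D2:**
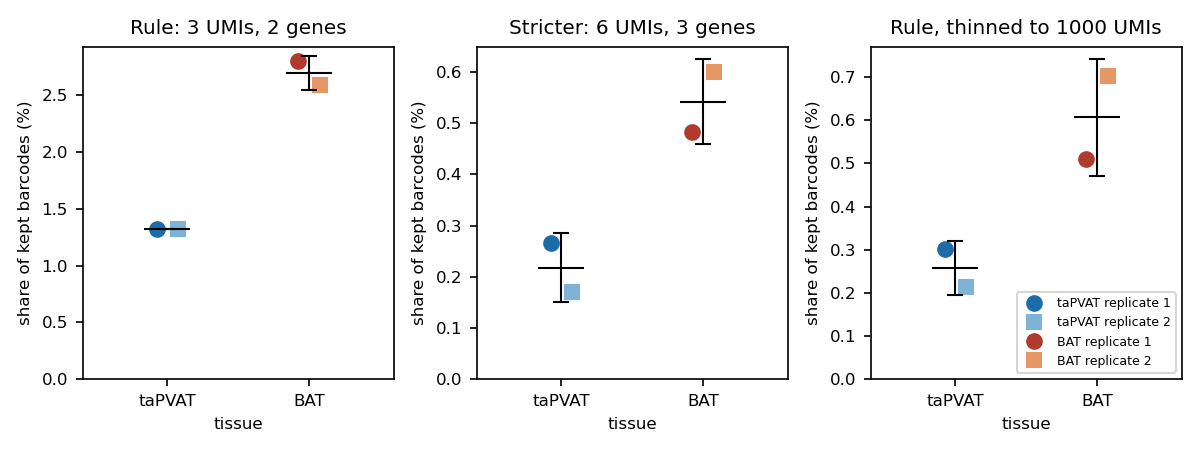
Share of kept barcodes (%, axes from 0) taken by the rule, by the stricter rule, and by the rule after thinning each barcode to 1000 UMIs. Points are libraries and bars are the mean and SD of 2. Both BAT libraries lie above both taPVAT libraries in each panel.

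Within the members and within the stricter-rule nuclei, no single gene passed the adjusted test between taPVAT and BAT in edgeR as designed. With edgeR's quasi-likelihood test on UMIs summed per library and Benjamini-Hochberg adjustment at 0.05, 0 of 10451 genes (0%) passed over all members, and 167 (1.6%) had an unadjusted p under 0.05. In the stricter-rule nuclei 0 of 6692 (0%) passed and 200 (2.99%) had an unadjusted p under 0.05. DESeq2 called 4 genes over all members (Foxp2, Abca16 and Slit2 higher in taPVAT, and Tbx15 lower) and 1, Foxp2, in the stricter-rule nuclei. Abca16, an ABC transporter, was at 27.6 and 21.5 CPM in taPVAT and 3.33 and 3.07 CPM in BAT over all members and at 27.8 and 19.4 CPM in taPVAT and 5.19 and 5.18 CPM in BAT in the barcodes not taken. With no filter on low counts edgeR called 30 and 14 genes. Leaving out 1 library gave, over all members, 10 calls without taPVAT replicate 1, 19 without taPVAT replicate 2, 61 without BAT replicate 1 and 45 without BAT replicate 2, and in the stricter-rule nuclei 8, 1, 24 and 7. Those fits rest an arm on a single library, whose spread is assumed to be that of the others. The values below are therefore given per library, and "unadjusted p" marks a difference that did not pass across all genes.

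As a background for the counts that follow, both taPVAT libraries were above both BAT libraries for 10% of genes tested over all members and for 15.5% in the stricter-rule nuclei. Both were below for 10.8% and 13.9%. Libraries that differ in no way by tissue would separate, in 1 direction or the other, with a probability of 0.333. Both directions together stayed under that, so a lack of overlap by itself is no sign of a tissue difference. The median log2 fold change over all genes tested was 0.00144 and -0.00320. Fold changes are taPVAT against BAT throughout.

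Contractile genes lay lower in taPVAT more often than higher. Of 36 tested in the stricter-rule nuclei, 18 had both taPVAT libraries below both BAT libraries and 3 had both above, with a median log2 fold change of -0.32. Without the 6 markers of the rule, which had chosen the nuclei, 16 of 30 were below and 3 above, with a median of -0.29. Over all members, again without those markers, 6 of 30 were below and 2 above. Of the 30 genes the rule had not used, none passed the adjusted test, and 2, both lower, had an unadjusted p under 0.05 in the stricter-rule nuclei. The summed smooth muscle markers, lower in taPVAT, and the pericyte markers, higher there, moved with this list, and their part in it was not tested.

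Actg2, the gamma actin of visceral and some vascular smooth muscle, was at 77.5 and 41.2 CPM in taPVAT and 142 and 256 CPM in BAT in the stricter-rule nuclei (log2 fold change -1.63 ± 0.46 SE, unadjusted p = 0.0052, adjusted p = 1). Its libraries did not overlap. Myocd was at 271 and 216 CPM in taPVAT and 431 and 399.8 CPM in BAT (a marker of the rule, given with no test), and Pdlim3, a Z-disc and dense-body adaptor, at 108 and 30.9 CPM in taPVAT and 169 and 158 CPM in BAT (-1.02 ± 0.45, unadjusted p = 0.046). In each, both BAT libraries were the higher ones. For Pdlim3 the 30.9 CPM of taPVAT replicate 2 is 3 UMIs, so the size of its difference is imprecise. Cnn1 stood at 32.3 and 61.8 CPM in taPVAT and 60.0 and 256 CPM in BAT, where BAT replicate 2 alone was high and BAT replicate 1 lay with taPVAT, and as a marker of the rule it is given with no test.

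The other contractile genes that the rule had not used gave no unadjusted p under 0.05. Myh11 was at 3389 and 3181 CPM in taPVAT and 4106 and 3354 CPM in BAT (log2 fold change -0.21), and Acta2 at 619.7 and 689.7 CPM in taPVAT and 857 and 803 CPM in BAT (-0.37), both markers of the rule and given with no test. Mylk, the myosin light chain kinase, was at 1028 and 1049.9 CPM in taPVAT and 957 and 948 CPM in BAT (0.10 ± 0.29) and Tpm1, a tropomyosin, at 1155 and 1338 CPM in taPVAT and 1263 and 1400.0 CPM in BAT (-0.13 ± 0.30). The differences of Mylk and Tpm1 were under their standard errors. Both taPVAT libraries lay below both BAT libraries for Acta2 and above them for Mylk. Cald1, Tpm2, Smtn, Des and Myl9 had log2 fold changes from -0.89 (Des) to -0.05 (Cald1), with unadjusted p of 0.128 or more. Synpo2 was lower in both taPVAT libraries, at 824 and 607 CPM in taPVAT and 1165 and 1037 CPM in BAT (-0.63 ± 0.31, unadjusted p = 0.067).

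**Figure D3:**
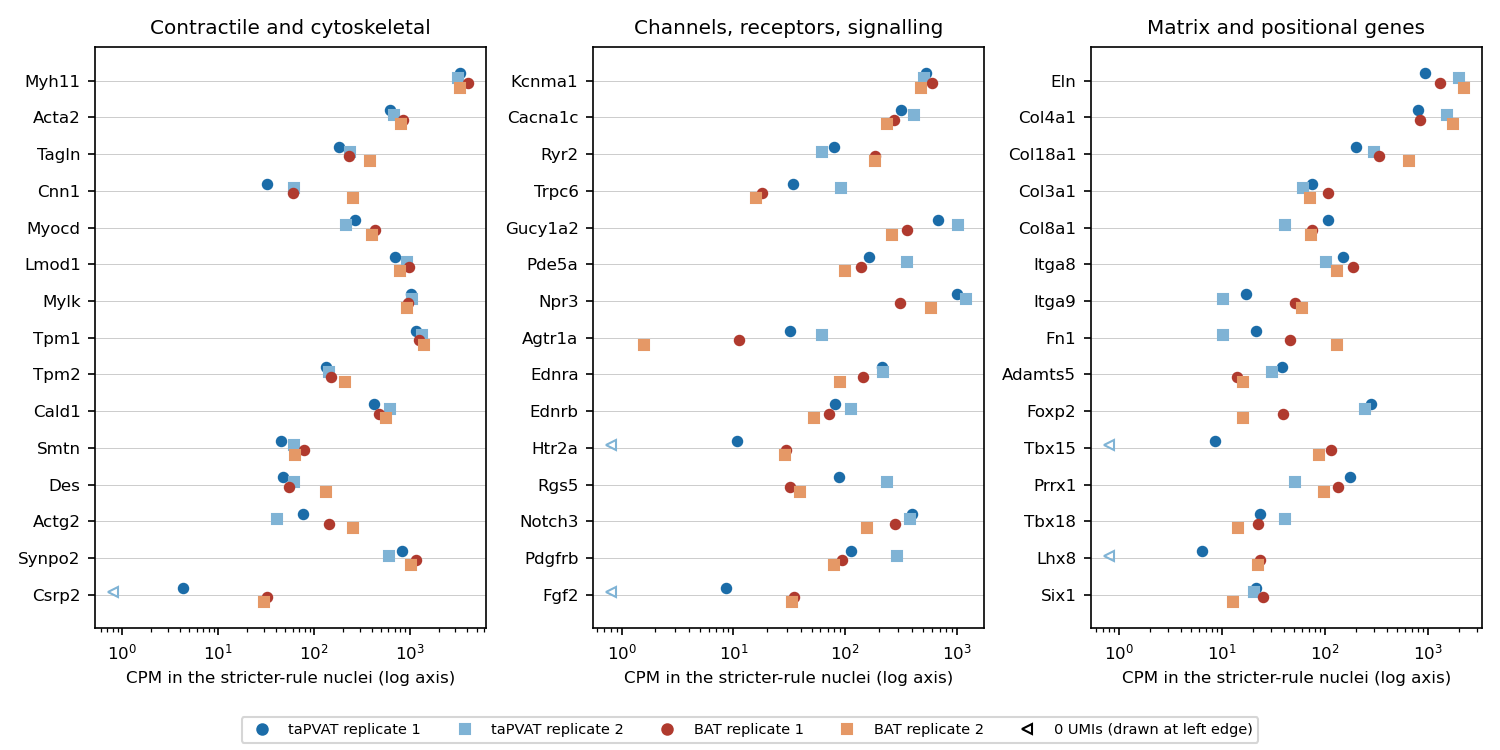
Level (CPM, log axis) of 45 genes in the stricter-rule nuclei of each library, with open triangles at the left edge for 0 UMIs. Actg2, Myocd, Ryr2, Tbx15 and Itga9 have both BAT libraries to the right, Gucy1a2, Npr3, Agtr1a, Trpc6 and Foxp2 have both taPVAT libraries to the right, and the points of Myh11, Mylk and Tpm1 lie close together.

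Among channels and calcium genes, 4 of 24 tested in the stricter-rule nuclei lay higher in both taPVAT libraries and 5 lower. Over all members 6 of 28 were above and 1 below. Ryr2, the ryanodine receptor that releases stored calcium, was at 79.6 and 61.8 CPM in taPVAT and 184 and 186 CPM in BAT (log2 fold change -1.35 ± 0.37 SE, unadjusted p = 0.0041, adjusted p = 1), with both BAT libraries above both taPVAT libraries. Trpc6, a cation channel of the vessel wall, was at 34.4 and 92.6 CPM in taPVAT and 18.1 and 15.9 CPM in BAT (log2 fold change 1.55 ± 0.59 SE, unadjusted p = 0.023, adjusted p = 1), in the other order. The main calcium entry and potassium channels had no unadjusted p under 0.05. Cacna1c, the pore of the L-type calcium channel, was at 318 and 412 CPM in taPVAT and 272 and 239 CPM in BAT (0.47 ± 0.32, unadjusted p = 0.18) and Kcnma1 had a log2 fold change of -0.07 ± 0.31 (unadjusted p = 0.81).

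Receptors for vasoactive signals and the nitric oxide pathway lay higher in taPVAT more often than lower. Of 25 tested in the stricter-rule nuclei, 9 had both taPVAT libraries above and 3 below. An unadjusted p under 0.05 was reached by 7 higher and 2 lower, and none passed the adjusted test. Over all members 10 of 30 were above and 4 below. The pericyte markers, higher in both taPVAT libraries, moved with this list, which holds the pericyte marker Rgs5, and their part in it was not tested. The median log2 fold change was 0.18 in the stricter-rule nuclei and 0.19 over all members.

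Gucy1a2, a subunit of the guanylate cyclase that senses nitric oxide, was at 678 and 1019 CPM in taPVAT and 354 and 263 CPM in BAT in the stricter-rule nuclei (log2 fold change 1.42 ± 0.34 SE, unadjusted p = 0.0018, adjusted p = 1). In the barcodes not taken it was at 44.6 and 47.8 CPM in taPVAT and 27 and 32.7 CPM in BAT. The tissues did not overlap in either set. Pde5a, which breaks down the cyclic GMP that this enzyme makes, was at 164 and 360.3 CPM in taPVAT and 139.6 and 98.7 CPM in BAT (1.02 ± 0.42, unadjusted p = 0.037).

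Agtr1a, the angiotensin II receptor through which that hormone constricts vessels, was at 32.3 and 61.8 CPM in taPVAT and 11.2 and 1.59 CPM in BAT (log2 fold change 2.55 ± 0.76 SE, unadjusted p = 0.0068, adjusted p = 1). These values rest on 15, 6, 8 and 1 UMIs in that order of libraries, and the fold change ran from 1.86 to 4.34 under the alternatives. Over all members Agtr1a was at 24.5 and 29.8 CPM in taPVAT and 8.33 and 13.4 CPM in BAT (1.33 ± 0.41, unadjusted p = 0.015), again without overlap. The same order without overlap was seen at 8.9 and 7.6 CPM in taPVAT and 4.74 and 4.97 CPM in BAT in the barcodes not taken and at 121 and 160.0 CPM in taPVAT and 103 and 99 CPM in BAT in pericyte-like barcodes. Ednra, the endothelin receptor of smooth muscle, was at 215 and 216 CPM in taPVAT and 144 and 89.2 CPM in BAT (0.87 ± 0.36, unadjusted p = 0.035).

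Npr3, the clearance receptor for natriuretic peptides, was at 1007 and 1215 CPM in taPVAT and 311 and 586 CPM in BAT in the stricter-rule nuclei and at 1418 and 1310.4 CPM in taPVAT and 568 and 942 CPM in BAT in the barcodes not taken, with both taPVAT libraries above both BAT libraries in each set. Rgs5, a pericyte marker that shortens G protein signals, was at 88.2 and 237 CPM in taPVAT and 32.1 and 39.8 CPM in BAT (1.97 ± 0.51, unadjusted p = 0.0031), in the same order as the summed pericyte markers. Adrb3, the beta-3 adrenergic receptor typical of brown adipocytes, was at 90.4 and 82.3 CPM in taPVAT and 147 and 241 CPM in BAT, below its level in the barcodes not taken in each library (154 and 301 CPM in taPVAT and 238 and 339 CPM in BAT). Its tissues did not overlap in the stricter-rule nuclei and overlapped in the barcodes not taken. Htr2a, a serotonin receptor that mediates contraction, was at 10.8 and 0 CPM in taPVAT and 29.3 and 28.7 CPM in BAT (-1.75 ± 0.70, unadjusted p = 0.031), and the 0 UMIs of taPVAT replicate 2 allow up to 30.9 CPM, for counting error only, so that library could not show the difference. Adra1a was at 1437 and 1637 CPM in taPVAT and 1625 and 1238 CPM in BAT, no higher than in the barcodes not taken (1912 and 2136 CPM in taPVAT and 2094 and 1537 CPM in BAT).

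Matrix and adhesion genes lay lower in taPVAT more often than higher in the stricter-rule nuclei. Of 44 tested, 16 had both taPVAT libraries below and 5 above, with a median log2 fold change of -0.23. Over all members the counts were 5 below and 7 above of 56, with a median of -0.07. The summed smooth muscle markers, lower in taPVAT, and the pericyte markers, higher there, also moved in the stricter-rule nuclei. Their part in this list was not tested. Eln, the elastin of arterial lamellae, was at 934 and 2018 CPM in taPVAT and 1316 and 2247 CPM in BAT in the stricter-rule nuclei (log2 fold change -0.33 ± 0.42 SE, unadjusted p = 0.45, adjusted p = 1). Its tissues overlapped, and replicate 2 was the higher library in each. The basement membrane chain Col4a1, at 809 and 1534 CPM in taPVAT and 846 and 1768 CPM in BAT, had the same order by replicate number.

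Itga9, an integrin that binds tenascin and fibronectin, was at 17.2 and 10.3 CPM in taPVAT and 51.6 and 60.5 CPM in BAT (unadjusted p = 0.006, adjusted p = 1). Fn1, fibronectin, was at 21.5 and 10.3 CPM in taPVAT and 46.1 and 131 CPM in BAT (unadjusted p = 0.0077) and Col18a1, a basement membrane collagen, at 200.1 and 299 CPM in taPVAT and 336 and 651 CPM in BAT (-1.08 ± 0.42, unadjusted p = 0.028). All 3 had both BAT libraries above both taPVAT libraries. For Itga9 and Fn1 the level in taPVAT replicate 2 is that of 1 UMI, where a count of 0 allows up to 30.9 CPM, so no fold change is given for them. Adamts5, a protease of proteoglycans, was at 38.7 and 30.9 CPM in taPVAT and 14 and 15.9 CPM in BAT in the other order (1.26 ± 0.52, unadjusted p = 0.036). Its level in taPVAT replicate 2 is that of 3 UMIs, no more than a count of 0 allows there, so the size of this difference is imprecise. The fibrillar collagens Col1a1 and Col3a1 missed the threshold also without adjustment (unadjusted p = 0.34 and 0.4). Dcn, decorin, was higher in both taPVAT libraries over all members, at 36.5 and 26.4 CPM in taPVAT and 17.3 and 18.7 CPM in BAT (unadjusted p = 0.044), with the same order in the barcodes not taken.

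Among all genes tested in the stricter-rule nuclei, Foxp2 and Tbx15, both positional transcription factors, had the smallest p-values. Foxp2, a forkhead factor (identifier ENSRNOG00000054508), was at 279.7 and 247 CPM in taPVAT and 39.1 and 15.9 CPM in BAT in the stricter-rule nuclei (log2 fold change 3.23 ± 0.44 SE, unadjusted p = 2.1e-05, adjusted p = 0.142). It was the call of DESeq2 there and passed in edgeR with any of the 4 libraries left out. In the barcodes not taken it was at 499 and 272 CPM in taPVAT and 64 and 24.9 CPM in BAT, above its level in the stricter-rule nuclei in each library. The tissue difference of Foxp2 in those barcodes was about as large (stricter-rule nuclei minus barcodes not taken, difference of the log2 fold changes 0.02 ± 0.34 SE).

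Tbx15, a T-box factor of the trunk mesoderm and of brown adipocytes (ENSRNOG00000019565), was at 8.61 and 0 CPM in taPVAT and 116 and 87.6 CPM in BAT in the stricter-rule nuclei (log2 fold change -3.86 ± 0.63 SE, unadjusted p = 9.9e-05, adjusted p = 0.331). The 0 of taPVAT replicate 2 allows up to 30.9 CPM, below both BAT values, so the size of this fold change is imprecise. Under the alternatives it ran from -8.62 to -3.57. The level of Tbx15 in the barcodes not taken was 9.78 and 4.0 CPM in taPVAT and 54.5 and 23.8 CPM in BAT. In BAT the stricter-rule nuclei were the higher set in both libraries. The difference of the 2 log2 fold changes was -1.82 ± 0.70 SE (adjusted p = 0.971, edgeR). Lhx8 was at 6.46 and 0 CPM in taPVAT and 23.7 and 22.3 CPM in BAT, where the 0 of taPVAT replicate 2 allows up to 30.9 CPM, so that library could not show a difference. Zic4 had 0 UMIs in both taPVAT libraries and 5.3 and 6.69 CPM in BAT over all members, where a count of 0 allows up to 0.953 and 2.48 CPM. In the barcodes not taken Zic4 was also at 0 in both taPVAT libraries and at 7.72 and 4.72 CPM in BAT.

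Most listed positional factors were too low to test. Of 118 listed symbols found, 18 features passed the filter on low counts in the stricter-rule nuclei and 28 over all members. Of those 18, 8 lay higher in both taPVAT libraries and 2 lower, and none passed the adjusted test. Over all members 5 of 28 were above and 5 below. Eya4 was among those above, with a log2 fold change of 2.35 that did not pass the adjusted test. Prrx1, a paired-related factor of limb and trunk mesenchyme, was at 174 and 51.5 CPM in taPVAT and 133 and 98.7 CPM in BAT (unadjusted p = 0.78), above its level in the barcodes not taken in each library (14.6 and 11.1 CPM in taPVAT and 11.3 and 11.8 CPM in BAT). Tbx18, a factor of mural cells, was at 23.7 and 41.2 CPM in taPVAT and 22.3 and 14.3 CPM in BAT (unadjusted p = 0.34). Pax3, Tbx20, Hoxc9 and Hoxc10 had 0 UMIs in all 4 libraries of the members.

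In the Notch, TGF-beta and growth factor list, 3 of 35 genes lay higher in both taPVAT libraries of the stricter-rule nuclei and 5 lower. Over all members 9 of 39 were above and 6 below. Notch3, the Notch receptor of mural cells, was at 398 and 381 CPM in taPVAT and 282 and 158 CPM in BAT (0.81 ± 0.35, unadjusted p = 0.042). Pdgfrb, the receptor that recruits mural cells, was at 112 and 288 CPM in taPVAT and 93.5 and 79.6 CPM in BAT (1.04 ± 0.46, unadjusted p = 0.047). Both also count among pericyte markers, whose sum had the same order. Fgf2, a fibroblast growth factor, was at 8.61 and 0 CPM in taPVAT and 34.9 and 33.4 CPM in BAT (unadjusted p = 0.0083), where the 0 of taPVAT replicate 2 allows up to 30.9 CPM, close to the BAT values. Over all members Slit2, a guidance ligand, was at 75.6 and 81 CPM in taPVAT and 16.8 and 19.2 CPM in BAT (2.14 ± 0.31, unadjusted p = 0.00025) and at 77.5 and 73.9 CPM in taPVAT and 16.3 and 15.9 CPM in BAT in the barcodes not taken, while Pdgfd was at 33 and 28.9 CPM in taPVAT and 76.6 and 71.7 CPM in BAT (-1.24 ± 0.30, unadjusted p = 0.0041). Of the list of modulated smooth muscle genes, 6 of 22 could be tested in the stricter-rule nuclei, 2 of them lower and 0 higher in both taPVAT libraries, and none had an unadjusted p under 0.05.

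Whether a tissue difference was the same in these nuclei as in other classes was tested as a class-by-tissue term in edgeR, with each library as a block. The value given is the log2 fold change of taPVAT against BAT in the members, or in the stricter-rule nuclei, minus that in the other class. Against pericyte-like barcodes, 0 of 10282 genes (0%) passed for all members, with 177 at an unadjusted p under 0.05 and 0 calls in DESeq2. For the stricter-rule nuclei 7 of 7855 (0.0891%) passed, and 0 of the 7 did in DESeq2. These were Kcnip1, Gpr176, Zfpm2, Inpp4b, Trpm3, Septin11 and Eln. With 1 library left out, Kcnip1 passed in 4 of 4 fits, and Gpr176, Zfpm2, Inpp4b, Septin11 and Eln in all but the fit without BAT replicate 2. Trpm3 passed in 2, not without taPVAT replicate 2 or BAT replicate 1. The differences were -1.75 for Zfpm2, a cofactor of GATA factors, and 1.57 for Septin11 of the septin cytoskeleton. Trpm3, a cation channel, was at 2.15 and 0 CPM in taPVAT and 8.37 and 4.78 CPM in BAT in the stricter-rule nuclei, too few UMIs for a fold change, and at 38.4 and 348 CPM in taPVAT and 4.8 and 3.36 CPM in BAT in pericyte-like barcodes, where taPVAT replicate 2 stood far above the rest.

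Elastin had a tissue order in pericyte-like and fibroblast-like barcodes that the stricter-rule nuclei did not share. Mesothelial markers also moved with the tissues in pericyte-like barcodes, at 17.7 and 47.5 CPM in taPVAT and 3.2 and 0 CPM in BAT. Fibroblast markers did so too, at 2394 and 2276 CPM in taPVAT and 2076 and 1900 CPM in BAT. The part of these markers in the differences from pericyte-like barcodes was not tested. In pericyte-like barcodes Eln was at 64.6 and 95 CPM in taPVAT and 31.2 and 23.5 CPM in BAT, with both taPVAT libraries above both BAT libraries, while in the stricter-rule nuclei the tissues overlapped (difference -1.82 ± 0.36 SE, adjusted p = 0.0146). In fibroblast-like barcodes it was at 349 and 219.8 CPM in taPVAT and 78.6 and 53.5 CPM in BAT (difference -2.34 ± 0.44 SE, adjusted p = 0.0124). The first of these differences was lost without BAT replicate 2, and the second passed with any library left out.

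Gpr176, an orphan G protein-coupled receptor (ENSRNOG00000005971), was at 288 and 597 CPM in taPVAT and 120.0 and 81.2 CPM in BAT in the stricter-rule nuclei and at 363 and 538 CPM in taPVAT and 396 and 419.6 CPM in BAT in pericyte-like barcodes (difference 1.86 ± 0.31 SE, adjusted p = 0.00221). Inpp4b, a phosphoinositide phosphatase (ENSRNOG00000018382), was at 1080.1 and 844 CPM in taPVAT and 381 and 259.6 CPM in BAT in the former and 426 and 393 CPM in taPVAT and 381 and 419.6 CPM in BAT in the latter (difference 1.55 ± 0.29 SE, adjusted p = 0.0103). For both genes the taPVAT libraries lay above the BAT libraries in smooth muscle and the tissues overlapped in pericyte-like barcodes, and both calls were lost without BAT replicate 2. Kcnip1, which binds voltage-gated potassium channels (ENSRNOG00000005365), was at 43 and 30.9 CPM in taPVAT and 257 and 147 CPM in BAT in the stricter-rule nuclei and 175 and 130.0 CPM in taPVAT and 169 and 117 CPM in BAT in pericyte-like barcodes (difference -2.54 ± 0.39 SE, adjusted p = 0.000815). In the barcodes not taken it was at 116 and 136 CPM in taPVAT and 214 and 206 CPM in BAT, so it was lower in taPVAT there too, by less (difference -1.56 ± 0.36 SE, adjusted p = 0.0067). That call held in 1 of the 4 fits with a library left out, the one without BAT replicate 2. The 30.9 CPM of Kcnip1 in taPVAT replicate 2 is that of 3 UMIs, no more than a count of 0 allows there. The sizes of both Kcnip1 differences are therefore imprecise. Gpr176 and Inpp4b also differed from the barcodes not taken (1.45 ± 0.30 SE, adjusted p = 0.00151, and 1.10 ± 0.24 SE, adjusted p = 0.00459). The first was lost without taPVAT replicate 2 or BAT replicate 2, and the second without BAT replicate 2.

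Against fibroblast-like barcodes 6 of 10134 genes (0.0592%) passed for all members and 30 of 8345 (0.359%) for the stricter-rule nuclei. All 6 were among the 30, in the same direction, and DESeq2 also called the 6, while it called 4 of the 30. Leaving out BAT replicate 1 left 0 calls for all members, and 9 of the 30 passed with any library left out. Col8a1, a short-chain collagen of vessel walls, was at 108 and 41.2 CPM in taPVAT and 75.4 and 73.3 CPM in BAT in the stricter-rule nuclei and 161 and 151 CPM in taPVAT and 11.6 and 3.82 CPM in BAT in fibroblast-like barcodes (difference -3.86 ± 0.56 SE, adjusted p = 0.00112). Plod2, a collagen lysyl hydroxylase, was at 17.2 and 61.8 CPM in taPVAT and 68.4 and 36.6 CPM in BAT in the stricter-rule nuclei and at 124 and 175 CPM in taPVAT and 14.6 and 3.82 CPM in BAT in fibroblast-like barcodes (difference -4.74 ± 0.60 SE, adjusted p = 0.00033). For both the tissue order of fibroblasts, higher in taPVAT, was absent in smooth muscle. The fibroblast-like level of either gene in BAT replicate 2 is that of 1 UMI (3.82 CPM), under the 11.5 CPM that a count of 0 allows there, so the sizes of these differences are imprecise. Postn, periostin, showed the reverse sign, at 157 and 381 CPM in taPVAT and 141 and 147 CPM in BAT in the stricter-rule nuclei and at 89.8 and 97.1 CPM in taPVAT and 237 and 447 CPM in BAT in fibroblast-like barcodes (difference 2.42 ± 0.37 SE, adjusted p = 0.00231). Gpm6a, Plxna4 and Me3 completed the 6, with differences of -2.79, -3.18 and -2.96. Mesothelial markers, at 121 and 171 CPM in taPVAT and 0 and 0 CPM in BAT for the fibroblast-like barcodes, moved with the tissues in that class, and their part in these differences was not tested.

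Against all barcodes not taken, the tissue as a whole without the members, 70 of 15438 genes (0.453%) passed for all members and 40 of 14901 (0.268%) for the stricter-rule nuclei. They shared 31, all in the same direction, which is 44.3% of the first list and 77.5% of the second. Over all members the smallest p was that of Hba-a1, a hemoglobin gene (difference -1.15 ± 0.10 SE, adjusted p = 1.5e-23 in edgeR). With 1 library left out its difference ran from -2.32 to -0.142. Hba-a2, Hbb and LOC100134871 also passed, with differences of -1.14, -1.14 and -0.82. DESeq2 called 12 of the 70, none of these genes among them, and 5 of the 40. Without 1 library the counts were 119, 80, 58 and 30 for all members, and 52, 37, 20 and 8 for the stricter-rule nuclei, leaving out taPVAT replicates 1 and 2 and then BAT replicates 1 and 2. Cdh11, a mesenchymal cadherin, and Asic2, an acid-sensing channel, passed in all 4 such fits with either rule. Cdh11 was at 51.6 and 92.6 CPM in taPVAT and 85.1 and 76.5 CPM in BAT in the stricter-rule nuclei and at 18.6 and 14.6 CPM in taPVAT and 1.23 and 1.7 CPM in BAT in the barcodes not taken (difference -4.05 ± 0.45 SE, adjusted p = 1.29e-15). Asic2 was at 68.9 and 51.5 CPM in taPVAT and 48.8 and 63.7 CPM in BAT in the stricter-rule nuclei and at 97.4 and 26.7 CPM in taPVAT and 2.62 and 3.4 CPM in BAT in the barcodes not taken (difference -4.55 ± 0.41 SE, adjusted p = 3.77e-24). In both the tissue difference lay in the barcodes not taken, and the libraries of the stricter-rule nuclei overlapped. Over all members the differences were smaller in size, -2.85 for Cdh11 and -1.98 for Asic2. With no filter on low counts, Asic2 passed the adjusted edgeR test between the tissues over all members. Prdm6, a repressor enriched in smooth muscle, was at 12.9 and 0 CPM in taPVAT and 46.1 and 33.4 CPM in BAT in the stricter-rule nuclei and at 3.06 and 1.77 CPM in taPVAT and 0.554 and 0.435 CPM in BAT in the barcodes not taken (adjusted p = 0.000358, lost without taPVAT replicate 1 or BAT replicate 1). The 0 of taPVAT replicate 2 allows up to 30.9 CPM, close to BAT replicate 2. Over all members its difference was -3.18 ± 0.54 SE, adjusted p = 3.46e-06, and it passed with any library left out. For all members the share of stricter-rule nuclei among them, 20.1% and 12.9% in taPVAT and 17.2% and 23.2% in BAT, moves with any smooth muscle gene in this comparison, and its part was not tested.

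**Figure D4:**
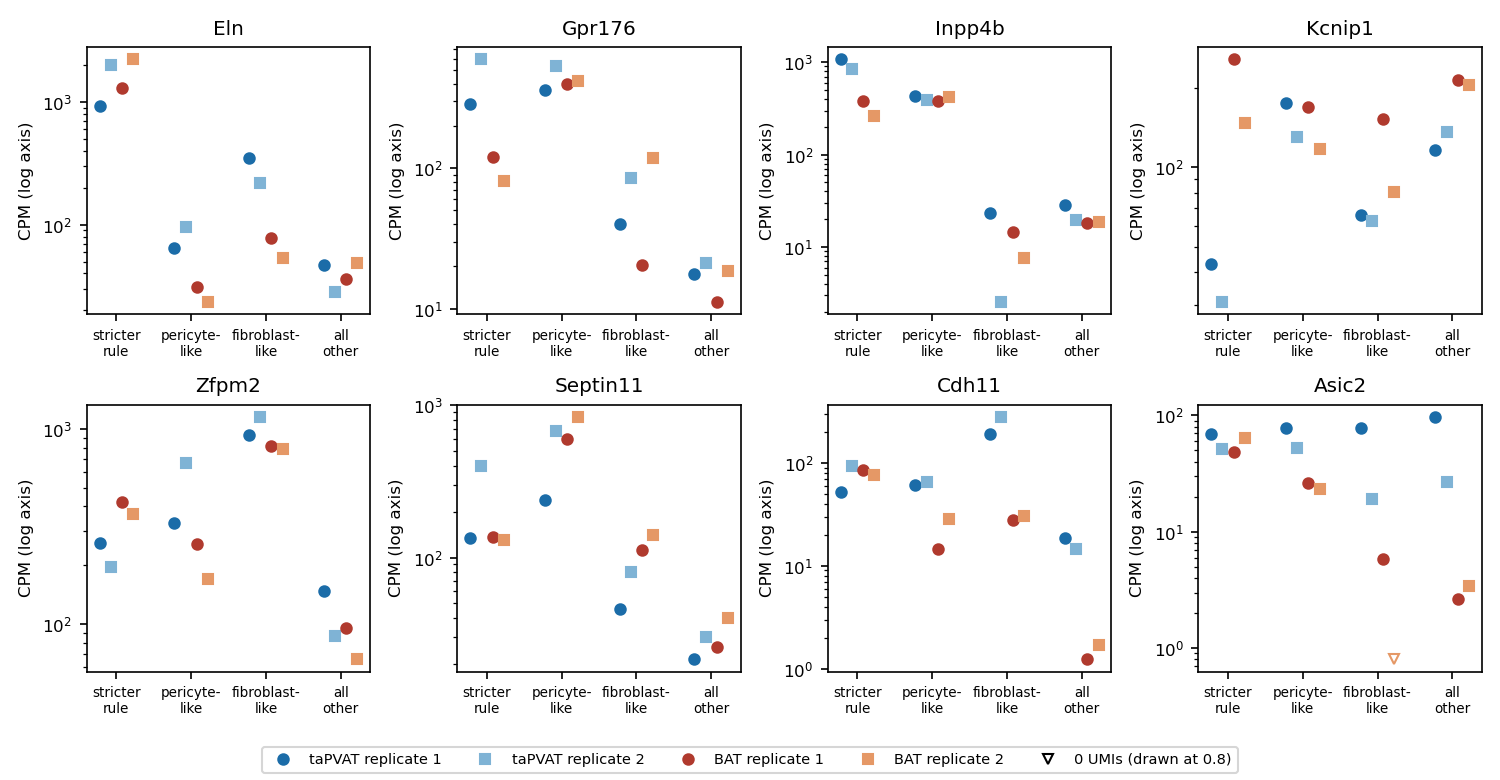
Level (CPM, log axes) of 8 genes in each library for the stricter-rule nuclei, pericyte-like barcodes, fibroblast-like barcodes and all barcodes not taken. For Gpr176 and Inpp4b the tissues separate in the stricter-rule nuclei and overlap in the pericyte-like barcodes, and for Eln and Cdh11 they overlap in the stricter-rule nuclei and separate in the pericyte-like barcodes.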

How the data were processed

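Nuclear RNA of 4 libraries was counted by droplet sequencing (3-prime kit). Per the file headers and the submitters' processing notes, the authors made the deposited matrices with Cell Ranger 7.1.0 on Rnor_6.0. Their values are raw UMI counts for 32883 features, and they list more barcodes than were kept here. Barcodes with at least 500 genes were kept. The members and gene lists were chosen with earlier results of these data known.

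UMIs were summed per library and set and tested with edgeR 4.0.16 (TMM scaling, filterByExpr, quasi-likelihood test, Benjamini-Hochberg at 0.05, taPVAT against BAT), checked on simulated data. DESeq2 1.42.0, other filters, other membership rules and single libraries left out were alternatives. Pericyte-like and fibroblast-like barcodes had at least 3 UMIs and 2 genes of their own markers, at most 1 UMI over excluded genes and at most 1 over the smooth muscle markers. Genes are named by a fixed rule: called genes, listed genes with an unadjusted p under 0.05 and no overlap, a fixed gene list, and the 20 largest ratios to the barcodes not taken. Not every gene that met this rule is given in the text. The same rule was applied to the stricter-rule nuclei after seeing the data. Shares were compared by an exact permutation test. Doublets were left in; Scrublet (scanpy 1.11.5) marked 10.8%, 6.61%, 0% and 15.3% of barcodes, failing in BAT replicate 1, where the 6402 highest scores were removed in the alternative. The labels give no batch or date.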

Additional observations from a re-analysis of the deposited data

Results flagged for a closer look

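Among the listed genes, those whose tissue difference over all members differed from that in another class (class-by-tissue term, edgeR, adjusted p under 0.05) were marked. Values are the log2 fold change of taPVAT against BAT in the members minus that in the other class. Against all barcodes not taken, 5 were above 0: Lmod1 0.49, Notch3 0.85, Dach1 1.22, Ano1 0.64 and Igfbp7 0.40. Below 0 were 11: Cdh11 -2.85, Synpo2 -0.90, Slit3 -0.66, Plod2 -1.78, Eln -0.57, Itga9 -1.79, Cacnb2 -0.72, Dmd -0.33, Ednrb -0.70, Col18a1 -0.63 and Col4a5 -0.98. Synpo2, Dmd, Cacnb2, Eln and Col18a1 are genes of the stricter-rule nuclei, whose share among the members was lowest in taPVAT replicate 2 and highest in BAT replicate 2, and the part of that share was not tested. Lmod1 is a marker of the rule, so its value describes the choice of members and supports nothing. With 1 library left out, Igfbp7 alone changed sign (-0.169 to 0.777), and Eln ran from -1.08 to -0.018. Cdh11 kept its call with any 1 library left out, and the others of this comparison lost it in at least 1 such fit, with the largest adjusted p of those fits from 0.0595 to 1. Against fibroblast-like barcodes the values were Plod2 -3.36, Postn 1.99 and Col8a1 -3.76, and none passed without BAT replicate 1. Groups of 2 libraries are too small to look for a single library far from the others.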

How the results depend on the processing

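Counts of called genes moved with several settings, and the cause was not tested. The fits without Lmod1 in the rule, those for the stricter-rule nuclei with their alternatives, and the stricter rule in the class-by-tissue terms were chosen after seeing the data. Between the tissues, the 0 calls over all members became 47 with the replicate number as a block, 30 with no filter on low counts, 4 in DESeq2, 1 with Lmod1 left out of the rule and 10 to 61 with 1 library left out, and stayed 0 under the 8 other alternatives (DESeq2 size factors, the stricter rule, low adipocyte marker share, no pericyte or no mesothelial markers, 1000 genes, no doublets, equal numbers of nuclei). In the stricter-rule nuclei the 0 calls became 72 with the block, 14 without the filter, 1 in DESeq2 and 1 to 24 with 1 library left out. Same-numbered libraries deviated together over genes (correlation 0.528 over all members, 0.318 in the stricter-rule nuclei), but there are only 2 pairs and the labels give the number no meaning, so the pairing was not used. For the class-by-tissue terms of all members, against all other, pericyte-like and fibroblast-like barcodes in that order, the calls were 70, 0, 6 as reported, 59, 2, 18 with the block, 72, 4, 49 without the filter, 12, 0, 8 in DESeq2, 40, 7, 30 under the stricter rule, 44, 4, 28 with Lmod1 left out, and 30 to 119, 0 to 18, 0 to 74 with 1 library left out. For the stricter-rule nuclei they were 40, 7, 30 as reported, 19, 24, 69 with the block, 39, 22, 58 without the filter, 5, 0, 4 in DESeq2, and 8 to 52, 2 to 86, 24 to 71 with 1 library left out. The difference in share of -1.38 percentage points was -0.324 under the stricter rule, -0.709 with a low adipocyte marker share, -1.53 with 1000 genes, -0.350 after thinning and -0.329 without Lmod1, and -1.49 and -1.27 within replicate numbers 1 and 2. Of 52 named genes, 29 had the same sign over all members under every alternative that could be fitted, and 56 of 819 values had the other sign. Under some alternative 9 genes were called. In the stricter-rule nuclei, 99 of 145 named genes had the same sign under every alternative, and 78 of 1158 values had the other sign, among them values of Eln, Cald1, Myl9, Kcnma1 and Adra1a. Depth limits the stricter-rule nuclei of taPVAT replicate 2 most, where 21 nuclei gave 97148 UMIs and 1 UMI is 10.3 CPM. With 2 rats for each tissue, p-values cover the spread between these libraries only, and the edgeR test takes part of that spread from other genes. A gene whose libraries of a tissue differ widely can therefore still have a small p-value. Niban1, at 84.8 and 374 CPM in BAT over all members, is such a gene.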

Other observations

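Several genes outside the fixed lists had small p-values between the tissues in the stricter-rule nuclei, none passing the adjusted test (edgeR), and were picked after their values were seen. Adgrl3, an adhesion receptor also called latrophilin-3, was at 181 and 268 CPM in taPVAT and 57.2 and 39.8 CPM in BAT (log2 fold change 2.12 ± 0.39 SE, unadjusted p = 0.00025, adjusted p = 0.514). Cpa6, a carboxypeptidase, was at 81.8 and 92.6 CPM in taPVAT and 240.0 and 231 CPM in BAT (-1.49 ± 0.36, unadjusted p = 0.0018) and at 0.836 and 0.826 CPM in taPVAT and 0.614 and 0.768 CPM in BAT in the barcodes not taken, so its level was far higher in the stricter-rule nuclei, with both BAT libraries above both taPVAT libraries. Csrp2, a LIM-domain protein of smooth muscle, was at 4.3 and 0 CPM in taPVAT and 32.1 and 30.3 CPM in BAT (unadjusted p = 0.0029), and the 0 of taPVAT replicate 2 allows up to 30.9 CPM, so this depth could not show a difference there. Kif26b, a kinesin-like protein, was at 4.3 and 10.3 CPM in taPVAT and 57.2 and 41.4 CPM in BAT (unadjusted p = 0.00089). Its level in taPVAT replicate 2 is that of 1 UMI, where a count of 0 allows up to 30.9 CPM, so the size of this difference is imprecise. Csgalnact1, which starts chondroitin sulfate chains, was at 45.2 and 82.3 CPM in taPVAT and 9.77 and 12.7 CPM in BAT (2.28 ± 0.56, unadjusted p = 0.002), and its difference from fibroblast-like barcodes passed the adjusted test (3.22 ± 0.62 SE, adjusted p = 0.0173), not without BAT replicate 1. Acsl5, an acyl-CoA synthetase, was at 824 and 823 CPM in taPVAT and 381 and 202 CPM in BAT in the stricter-rule nuclei and at 1179 and 1091 CPM in taPVAT and 508 and 255 CPM in BAT in the barcodes not taken, in the same order. Usp18, an interferon-induced protease, was at 51.6 and 82.3 CPM in taPVAT and 16.7 and 9.56 CPM in BAT and at 73.9 and 47.7 CPM in taPVAT and 35.6 and 17.2 CPM in BAT in those sets, again in the same order.

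Niban1 overlapped between the tissues and had its highest level in 1 library. It was at 430.3 and 957 CPM in taPVAT and 737 and 2000.5 CPM in BAT in the stricter-rule nuclei, with BAT replicate 2 highest, and at 15.4 and 13 CPM in taPVAT and 15.2 and 16.8 CPM in BAT in the barcodes not taken. The difference between those 2 tissue differences passed in edgeR (-0.98 ± 0.14 SE, adjusted p = 1.28e-09 over all members, and -0.94 ± 0.24 SE, adjusted p = 0.0313 in the stricter-rule nuclei). The first was lost without BAT replicate 2 and the second without taPVAT replicate 1 or BAT replicate 2, with adjusted p up to 1.0 in either. Cnn1 and Des had the same highest library.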
